A study of Mus musculus with 24 samples.

Results

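Expression of 10 genes of protein folding in the endoplasmic reticulum (ER) was followed across 24 RNA-seq libraries of mouse thoracic aorta. They are Hspa5, Hsp90b1, Calr, Pdia3, Pdia4, Pdia6, Sdf2l1, Dnajb9, Manf and Xbp1, and they were taken by symbol from the deposited table of counts per gene. All 10 were found among its 25941 genes, and all 10 were among the 14451 genes with enough counts to be tested. The libraries came from male wild-type C57BL/6 mice, adults of 10 to 12 weeks, whose aortas were taken at ZT11 (hours after lights on). Of these, 8 libraries came from mice fed celecoxib in chow at 100 mg/kg/day, 8 from mice fed rofecoxib at 50 mg/kg/day and 8 from mice fed the chow without either drug, each for 3 weeks. Both drugs are selective inhibitors of cyclooxygenase-2. Their doses differed and no dose was shared, so the values of the drugs are set side by side without matching for dose. The series describes the 8 libraries of a group as biological replicates, while the labels do not tie libraries to animals; should any share an animal, the p-values measure no more than the spread between these samples. The number in each sample title falls in a separate range for each group, celecoxib and rofecoxib included, and what it marks is not stated. An order that follows it cannot be told apart from the groups in any of the comparisons.

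Proteins that enter the secretory pathway fold in the ER with the help of chaperones and of enzymes that form disulfide bonds. When unfolded proteins accumulate, the sensors IRE1, PERK and ATF6 start the unfolded protein response: IRE1 splices the Xbp1 mRNA so that it encodes an active transcription factor, PERK slows translation and raises ATF4, and cleaved ATF6 enters the nucleus. XBP1 and ATF6 act on promoters of chaperone genes, among them Hspa5, whose product BiP binds the sensors in unstressed cells. In the aorta, smooth muscle cells and fibroblasts make large amounts of collagen, elastin and other secreted matrix proteins. Counts per gene cannot separate spliced from unspliced Xbp1 mRNA.

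The promoters are shown first, because the classical ER stress response element (ERSE) was defined in genes of this family. RefSeq promoter windows on GRCm38.p6, from 250 bases before to 50 bases after the start site, were given for 9 of the 10 genes; Manf is named only. The Hspa5 window lies at chr2:34771840-34772139 on the plus strand. It is printed 5′ to 3′ with the ERSE letters in capitals, and the match begins at position -65 from the start site.
Hspa5: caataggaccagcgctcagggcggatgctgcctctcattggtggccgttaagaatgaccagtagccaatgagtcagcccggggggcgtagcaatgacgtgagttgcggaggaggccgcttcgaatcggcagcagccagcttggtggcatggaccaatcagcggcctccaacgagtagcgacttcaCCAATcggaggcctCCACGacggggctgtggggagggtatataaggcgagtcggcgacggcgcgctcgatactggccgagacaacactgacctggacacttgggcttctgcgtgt

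The ERSE was searched as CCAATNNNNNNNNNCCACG on both strands, and 4 of the 9 windows held it, against 39 of 32851 RefSeq promoters of the same length (0.119%). The other matches are printed with 10 bases on either side, as read along the strand of their gene, with the fixed letters of the motif in capitals. Hsp90b1 held 1 match in each orientation; the printed stretches lie at chr10:86705628-86705666 and chr10:86705523-86705561 on the minus strand, and the matches in them begin at positions -212 and -107. The printed stretch of Calr lies at chr8:84847065-84847103 on the minus strand, with its match beginning at position -162, and that of Pdia6 at chr12:17266481-17266519 on the plus strand, with its match beginning at position -98.
Hsp90b1, forward: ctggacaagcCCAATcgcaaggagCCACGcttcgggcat
Hsp90b1, reverse: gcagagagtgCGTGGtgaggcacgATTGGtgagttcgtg
Calr, reverse: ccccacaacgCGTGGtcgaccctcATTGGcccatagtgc
Pdia6, forward: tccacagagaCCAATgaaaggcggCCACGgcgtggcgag
A related element, ERSE-II (ATTGGNCCACG), was in 0 of the 9 windows and in 12 of all promoters (0.0365%). The core TGACGTGG of the element bound by XBP1 and ATF6 was in 0 of the 9 and in 222 of all promoters (0.676%). A match of letters describes these windows and says nothing of binding in the aorta, and no match says only that the letters are not in the window.

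Library totals ran from 21652432 to 21687906 counts, and the sources used here do not give the step that made these totals nearly equal. Pearson's r between libraries of 1 group was 0.962 to 0.994 across genes, and edgeR's common biological coefficient of variation was 0.16. Levels are CPM, counts relative to library size after TMM scaling, which corrects library sizes for differences in composition. The tissue label was checked against smooth muscle genes: Acta2 ran from 14100 to 22750 CPM and Myh11 from 7930 to 13060 CPM. Control replicate 6 stood apart in fat genes, with summed CPM of 7193 over 10 adipocyte markers and 1735 over 10 brown adipocyte markers, against control medians of 2818 and 456. Rofecoxib replicate 2 had 305.9 summed CPM over 10 skeletal and cardiac muscle markers, against a rofecoxib median of 24.9. Results that change without these 2 libraries are given with both values.

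**Figure D1:**
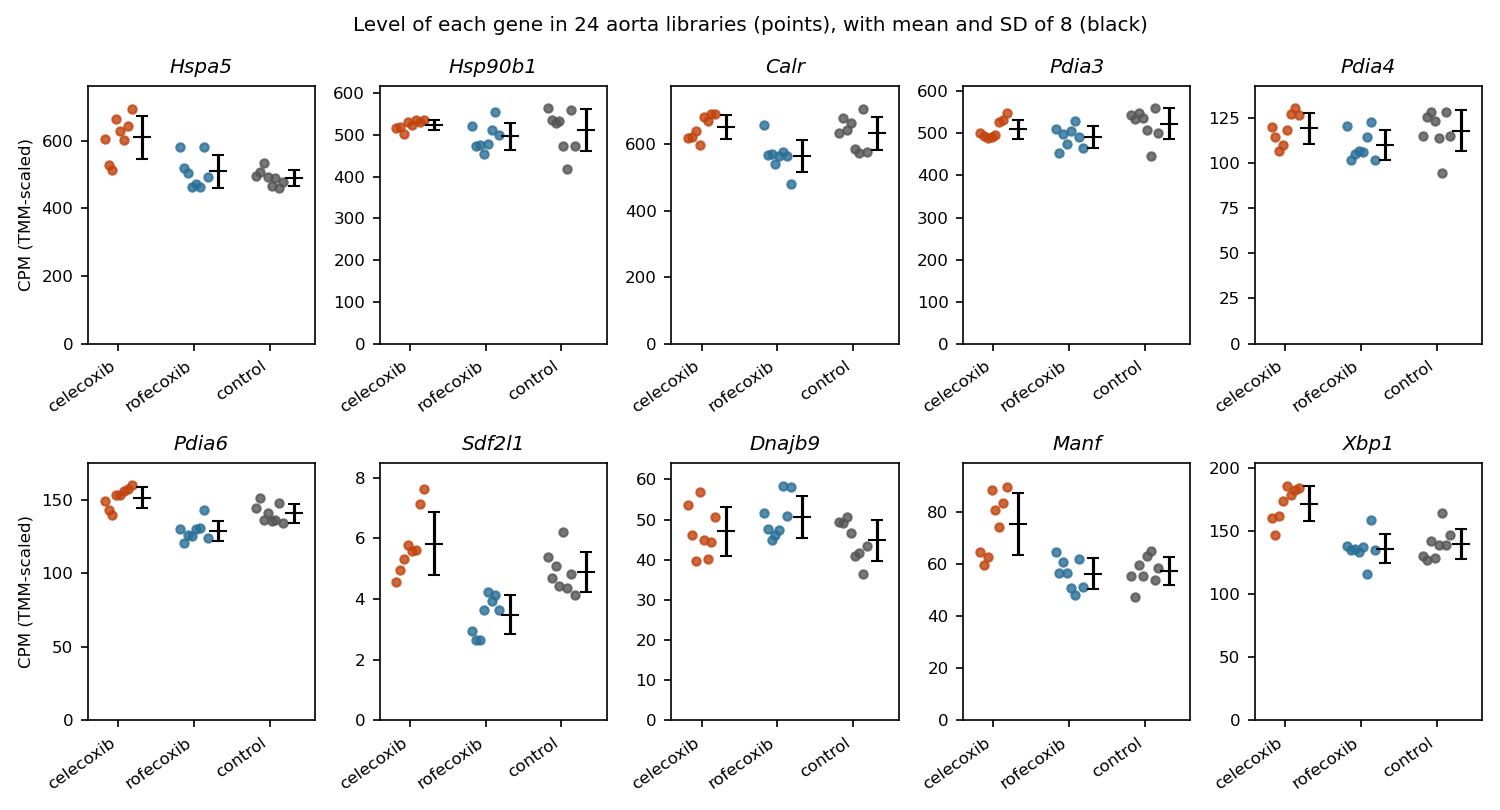
Level of each of the 10 genes (y axis, TMM-scaled CPM, starting at 0) in celecoxib, rofecoxib and control aortas. Each point is 1 library, and the black bar is the mean with its SD over 8 libraries. Hspa5, Manf and Xbp1 are highest with celecoxib, and all 8 rofecoxib points of Sdf2l1 lie below all 8 celecoxib points.

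In aortas of celecoxib-fed mice, Hspa5, Manf and Xbp1 were higher than in controls by 23% to 31.7%, and the other 7 genes did not pass the test. Hspa5 encodes BiP, the main Hsp70 chaperone of the ER lumen. Manf encodes a small protein that is held in the ER by BiP and secreted under stress, and Xbp1 encodes the transcription factor that IRE1 activates. A gene is called here when edgeR's quasi-likelihood test gives a Benjamini-Hochberg adjusted p under 0.05 over all genes tested. The 3 called genes of 10 stand beside 204 called genes of 14451 in the whole table (1.41%), and, for calls in the higher direction, beside 0.913%, while 0 of the 10 were called lower by edgeR or DESeq2, and 0 at an unadjusted p under 0.05, against 0.498% of all genes called lower. The 10 genes were chosen with earlier results of these data known, so these shares do not test them as a group. In bulk aorta, a change in the share of cells of a type and a change in RNA per cell cannot be told apart.

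Hspa5 had 512.5, 617 and 694 CPM as lowest, median and highest value with celecoxib, against 459.8, 491 and 535 CPM in controls. Among the 8 celecoxib libraries, 6 were above every control, and replicates 2 and 3, at 528 and 512.5 CPM, overlapped the controls. The means were 610 ± 63.1 CPM with celecoxib and 490 ± 23.9 CPM in controls (SD, n = 8 each), a log2 fold change of 0.31 ± 0.06 (SE; edgeR adjusted p = 0.0155). This call held in each of the 24 fits that left out 1 library, where the adjusted p was at most 0.0452.

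Xbp1 had 147, 176 and 186 CPM as lowest, median and highest value with celecoxib, against 127, 139 and 165 CPM in controls. Of the celecoxib libraries, 5 lay above every control, and the highest control was replicate 6, the library rich in fat genes. The means were 172 ± 14.0 CPM with celecoxib and 139.8 ± 12.2 CPM in controls (SD, n = 8 each), which gave a log2 fold change of 0.30 ± 0.06 (edgeR adjusted p = 0.0178). Without control replicate 6 and rofecoxib replicate 2, Xbp1, Hspa5 and Manf were again the 3 genes called.

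Manf had 59.7, 77.7 and 89.7 CPM as lowest, median and highest value with celecoxib, against 47.5, 57.2 and 65.0 CPM in controls. Celecoxib replicates 1, 2 and 3 had 64.7, 59.7 and 62.9 CPM, within the range of the controls, and the other 5 had 74.4 to 89.7 CPM, above every control. The means were 75.6 ± 11.9 CPM with celecoxib and 57.4 ± 5.50 CPM in controls (SD, n = 8 each), a log2 fold change of 0.40 ± 0.09 (edgeR adjusted p = 0.0242). This call was lost without celecoxib replicate 4 (edgeR adjusted p = 0.0682), 5 (0.0608) or 8 (0.0571), without control replicate 2 (0.0537), and when only the libraries of the 2 groups entered the fit (0.0506). The span of Manf in the table also overlaps Vprbp and Rbm15b, which averaged 986 and 512.5 counts against 1364 for Manf; strand use in counting is not stated, so shared reads cannot be told apart.

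The 7 genes that were not called with celecoxib had log2 fold changes near 0 in most cases. Pdia6, a disulfide isomerase of the ER lumen, had 152 ± 7.23 CPM with celecoxib and 141 ± 6.32 CPM in controls, and 5 of 8 celecoxib libraries were above every control (log2 fold change 0.11 ± 0.04, edgeR adjusted p = 0.161). Sdf2l1, a partner of the J-domain cochaperone Dnajb11 in the ER lumen, had 5.82 ± 1.04 CPM with celecoxib and 4.89 ± 0.67 CPM in controls (edgeR log2 fold change 0.25 ± 0.12, adjusted p = 0.274). The 5 others were Hsp90b1 (GRP94, the Hsp90 of the ER), Calr (calreticulin, a lectin chaperone of glycoproteins), Pdia3 (the isomerase that works with calreticulin), Pdia4 (a further disulfide isomerase) and Dnajb9 (a J-domain cochaperone of BiP). Their log2 fold changes ran from -0.036 for Pdia3 to 0.071 for Dnajb9, and their adjusted p-values in edgeR from 0.686 to 0.92. The 95% intervals were -0.07 to 0.15 for Hsp90b1, -0.07 to 0.16 for Calr, -0.13 to 0.056 for Pdia3, -0.11 to 0.14 for Pdia4 and -0.09 to 0.24 for Dnajb9.

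Of the 10 genes, 9 had a log2 fold change above 0 with celecoxib, 8 when library totals replaced TMM factors and 7 without control replicate 6. Their median was 0.089, beside a median of -0.0053 over all genes tested, 48.4% of which were above 0. Among smooth muscle markers, 3 of 10 were also called higher with celecoxib, and the list summed to between 41680 and 51390 CPM with celecoxib and between 34390 and 46850 CPM in controls, lowest in control replicate 6. All 10 of these markers were above 0 in every library, and 0 of 10 fibroblast markers were called by edgeR or DESeq2 or had an unadjusted p under 0.05. Of 10 brown adipocyte markers edgeR called 0, 4 were lower at an unadjusted p under 0.05 and DESeq2 called Ppargc1a lower; their median log2 fold change was -0.79, and they summed to between 115 and 544 CPM with celecoxib and between 171 and 1735 CPM in controls, highest in control replicate 6. Of the 6 tested skeletal and cardiac muscle markers, Tnnt3 was called higher, and the list of 10 summed to between 22.8 and 39.3 CPM with celecoxib and between 14.9 and 36.6 CPM in controls. The part of these cell types in the higher chaperone values was not tested. Plasma cells are rich in ER chaperones. Of the 10 markers of B and plasma cells, 9 were in the table, 5 were tested and 0 were called by edgeR or DESeq2 or had an unadjusted p under 0.05. Their summed CPM of 53.0 to 74.6 with celecoxib and 53.3 to 66.0 in controls came mostly from Sdc1, with a median of 54.5 CPM over the 24 libraries. Of the other 8, Irf4 had a median of 3.41 CPM and a highest value of 12.8 CPM, Igj a median of 0.182 and a highest value of 7.05 CPM, and Tnfrsf17, at 0 in at least 1 library, the lowest median, 0.094 CPM. The part of plasma cells was not tested.

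**Figure D2:**
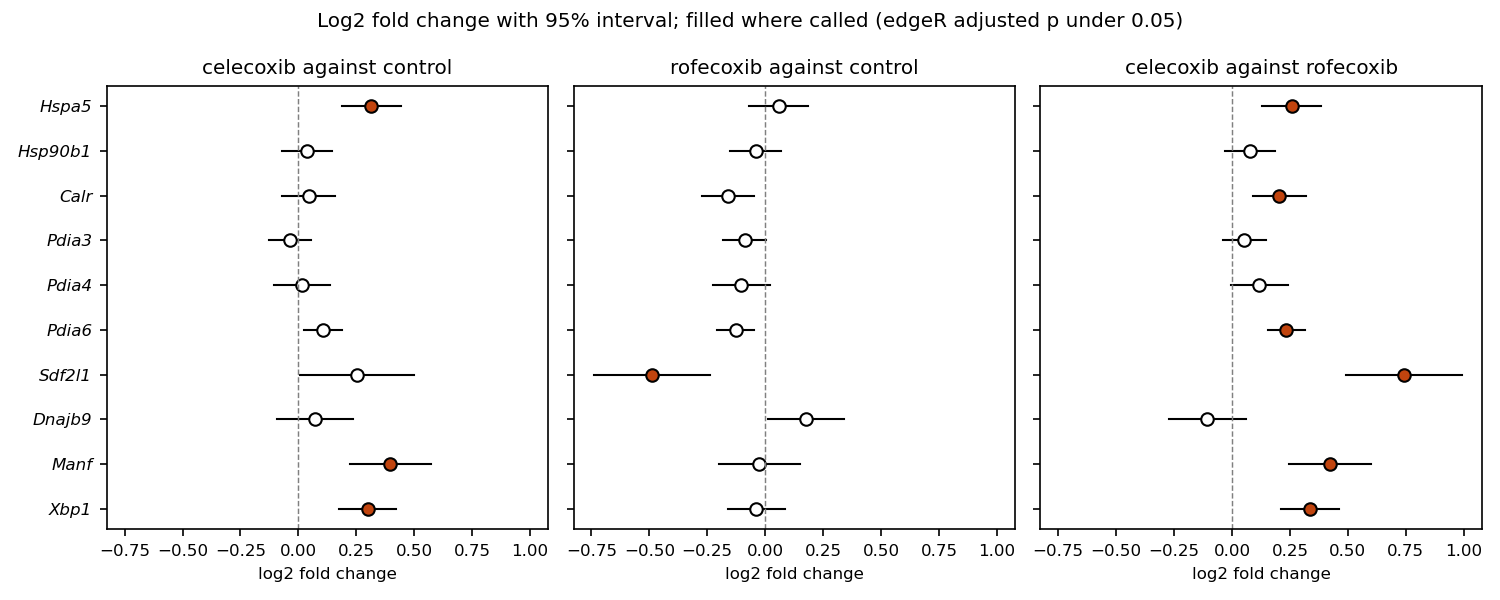
Log2 fold change (x axis) of each gene (rows) in the 3 comparisons, with 95% intervals; filled points were called by edgeR at an adjusted p under 0.05. Hspa5, Manf and Xbp1 are filled against control with celecoxib, Sdf2l1 alone with rofecoxib, and 6 genes between the drugs.

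With rofecoxib, 1 of the 10 genes was called against control, Sdf2l1, and it was lower. Over all genes, 766 were called in this comparison (5.3%), 351 of them higher (2.43%) and 415 lower (2.87%). The same 8 control libraries serve both comparisons with control, so the values of the drugs against control are not independent of each other.

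Sdf2l1 had 2.65, 3.64 and 4.24 CPM as lowest, median and highest value with rofecoxib, against 4.13, 4.76 and 6.20 CPM in controls. Of the 8 rofecoxib libraries, 6 were below every control, and replicates 5 and 7, at 4.24 and 4.14 CPM, were just above the lowest control. The means were 3.5 ± 0.65 CPM with rofecoxib and 4.89 ± 0.67 CPM in controls (SD, n = 8 each), from 57 to 93 counts per rofecoxib library and 91 to 135 counts per control library. The log2 fold change was -0.49 ± 0.12 (edgeR adjusted p = 0.028). It was not called after a correction for transcript GC content (log2 fold change -0.39, edgeR adjusted p = 0.0793), or without rofecoxib replicate 8 or control replicate 5 or 7, where the edgeR adjusted p was 0.0531, 0.0688 and 0.0559. It was also lost without rofecoxib replicate 2 (edgeR adjusted p = 0.05002), and without that library and control replicate 6 (0.0628). At 56.7% GC, the Sdf2l1 transcripts have the highest GC content of the 10 genes, which otherwise lie between 42.8% for Hsp90b1 and 51.6% for Pdia4.

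Pdia6 and Calr came closest to the threshold among the other 9. Pdia6 had 121, 128 and 143.5 CPM as lowest, median and highest value with rofecoxib and 135, 139 and 151 CPM in controls, with 7 of 8 rofecoxib libraries below every control (log2 fold change -0.13 ± 0.04, edgeR adjusted p = 0.0528). After GC correction Pdia6 was the 1 gene called (-0.17, edgeR adjusted p = 0.0313). Calr had 566 ± 48.5 CPM with rofecoxib and 633 ± 50.0 CPM in controls, with 6 rofecoxib libraries below every control (-0.16 ± 0.05, edgeR adjusted p = 0.0712). Hspa5, Manf and Xbp1 had log2 fold changes of 0.058, -0.025 and -0.038, with 95% intervals of -0.07 to 0.18, -0.20 to 0.15 and -0.16 to 0.086. Dnajb9 had 50.6 ± 5.19 CPM with rofecoxib and 44.8 ± 5.01 CPM in controls, higher than the control mean in 8 of 8 libraries and not called (0.18 ± 0.08, edgeR adjusted p = 0.154). Hsp90b1, Pdia3 and Pdia4 had log2 fold changes of -0.042, -0.089 and -0.10.

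The median log2 fold change of the 10 genes with rofecoxib was -0.065, beside -0.00021 over all genes tested. Of the 10, 2 were above 0, against 50% of all genes. Without control replicate 6 and rofecoxib replicate 2, 4 of the 10 were above 0. Their median was then -0.083, beside 0.012 over all genes. With rofecoxib, edgeR called 5 of 10 fibroblast markers and 3 of 10 macrophage markers lower than in controls, and 3 of 10 smooth muscle markers higher. At an unadjusted p under 0.05 in edgeR, 7 fibroblast and 10 macrophage markers were lower, and 6 smooth muscle markers higher. DESeq2 called 6 fibroblast and 7 macrophage markers lower, and 3 smooth muscle markers higher. Of 6 tested skeletal and cardiac muscle markers, 4 were higher at an unadjusted p under 0.05, and edgeR and DESeq2 called 0. The fibroblast list summed to between 6445 and 8607 CPM with rofecoxib and between 7535 and 11630 CPM in controls. The macrophage list summed to between 135 and 284 CPM with rofecoxib and between 245 and 405 CPM in controls, and none of these markers was at 0 in any library. Of 10 brown adipocyte markers edgeR and DESeq2 called 0 and 3 were lower at an unadjusted p under 0.05, with sums between 253 and 448.5 CPM with rofecoxib and between 171 and 1735 CPM in controls. The part of these cell types in the values of Sdf2l1, Pdia6 and Calr was not tested.

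Between the drugs, 6 of the 10 genes were called, all higher with celecoxib than with rofecoxib. This share has to be read against a large background: 3275 genes were called in this comparison (22.7%), 1661 of them higher (11.5%) and 1614 lower (11.2%). As the 10 genes were chosen with earlier results of these data known, their share is not a test of them as a group. The 6 genes were Sdf2l1, Manf, Xbp1, Hspa5, Pdia6 and Calr. They were called again in each of the 24 fits that left out 1 library and under each of 9 other settings.

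Sdf2l1 showed the largest difference of the 10, with 4.57, 5.60 and 7.62 CPM as lowest, median and highest value with celecoxib, against 2.65, 3.64 and 4.24 CPM with rofecoxib. The groups did not overlap, and how many of all genes separate in this way was not counted. The log2 fold change was 0.74 ± 0.12 (edgeR adjusted p = 0.00109) and 0.60 after GC correction (edgeR adjusted p = 0.00473). Celecoxib replicates 7 and 8 had the highest Sdf2l1 values, at 7.13 and 7.62 CPM. Relative to each gene's mean over the 24 libraries, their log2 CPM also rose most steeply with transcript GC content. The slopes were 2.03 and 1.94 log2 CPM per unit of GC fraction.

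For Xbp1, 7 of 8 celecoxib libraries were above every rofecoxib library; rofecoxib replicate 7, at 159 CPM, was the highest of its group. The means were 172 ± 14.0 CPM with celecoxib and 136 ± 11.5 CPM with rofecoxib (SD, n = 8 each), a log2 fold change of 0.34 ± 0.06 (edgeR adjusted p = 0.00134). Hspa5 averaged 610 ± 63.1 CPM with celecoxib and 510.3 ± 48.9 CPM with rofecoxib, and 6 celecoxib libraries were above every rofecoxib library (0.26 ± 0.06, edgeR adjusted p = 0.00653). The 2 highest rofecoxib values of Hspa5 were 582 CPM in replicate 1 and 583 CPM in replicate 7, and the other 6 lay between 462.5 and 520.1 CPM. Manf averaged 75.6 ± 11.9 CPM with celecoxib and 56.4 ± 6.00 CPM with rofecoxib (0.42 ± 0.09, edgeR adjusted p = 0.00247).

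Pdia6 averaged 152 ± 7.23 CPM with celecoxib and 129 ± 6.88 CPM with rofecoxib, and rofecoxib replicate 7, at 143.5 CPM, was the only library of its group within the celecoxib range (0.23 ± 0.04, edgeR adjusted p = 0.00114). Calr averaged 652 ± 37.1 CPM with celecoxib and 566 ± 48.5 CPM with rofecoxib (0.20 ± 0.05, edgeR adjusted p = 0.0118). The other 4 genes were not called. Their log2 fold changes and 95% intervals were 0.078 (-0.03 to 0.19) for Hsp90b1, 0.053 (-0.04 to 0.15) for Pdia3, 0.12 (-0.0041 to 0.24) for Pdia4 and -0.11 (-0.27 to 0.058) for Dnajb9. After GC correction Hsp90b1, whose transcripts have the lowest GC content of the 10, was called as well (0.22, edgeR adjusted p = 0.0089), while 1446 genes were called in all (10%).

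The slope on GC content of log2 CPM, relative to each gene's mean over the 24 libraries, was taken in each library. It was 0.83 ± 0.97 with celecoxib, -1.16 ± 1.04 with rofecoxib and 0.33 ± 0.91 in controls (mean ± SD of 8 libraries, log2 CPM per unit of GC fraction). The slopes ran from -0.62 to 2.03 with celecoxib, -2.96 to -0.137 with rofecoxib and -0.883 to 1.52 in controls. Their difference between the groups was not tested. After GC correction, which took off a smoothed curve on GC content in each library, the median log2 fold change of the 10 genes between the drugs was 0.26, beside 0.22 without the correction and -0.0026 over all genes tested. Of 10 fibroblast markers, 6 were called higher with celecoxib than with rofecoxib, and the list summed to between 7903 and 11640 CPM with celecoxib and between 6445 and 8607 CPM with rofecoxib. The part of fibroblast content in the differences between the drugs was not tested.

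**Figure D3:**
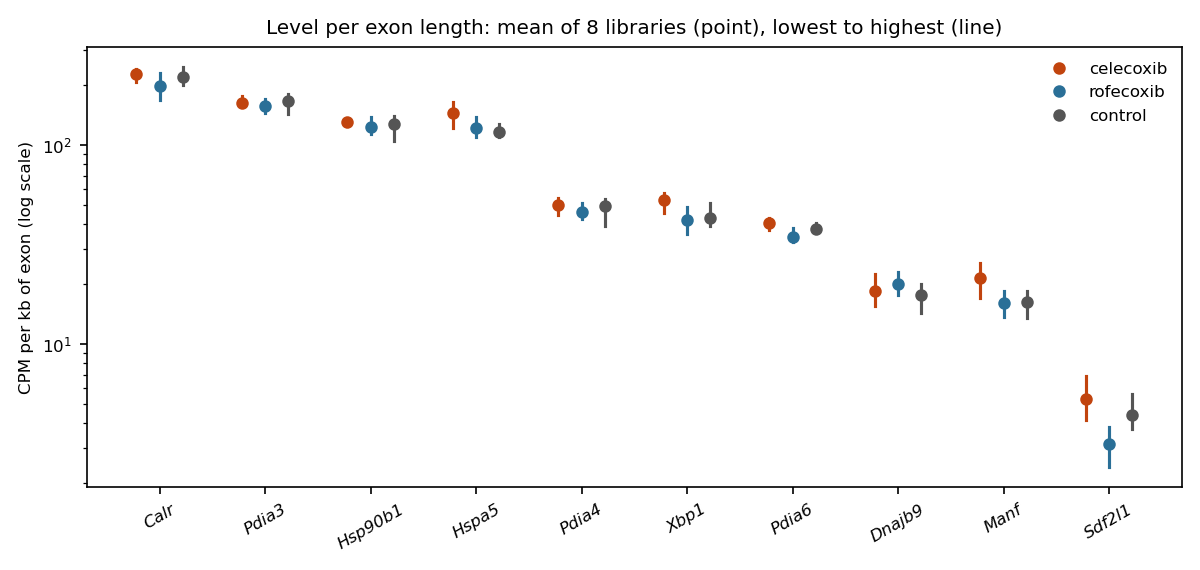
Level per exon length (y axis, CPM per kb of exon, log scale) of the 10 genes, in the order of their control means from left to right. Points are means of 8 libraries and lines run from the lowest to the highest library; within each gene, celecoxib is left, rofecoxib in the middle and control right. Hspa5 stands above Hsp90b1 with celecoxib and below it in controls.

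Levels of different genes were compared per kb of exon, with exon lengths from GENCODE. Each length is the union of exons over all annotated transcripts of the gene, from 1108 bases for Sdf2l1 to 4229 for Hspa5. The transcripts used in the aorta and the annotation behind the counts are not known here. The order between genes can therefore depend on these lengths. Calr was the highest of the 10 in all 3 groups, at 226.5 ± 12.9 CPM per kb with celecoxib, 196.5 ± 16.8 CPM per kb with rofecoxib and 219.7 ± 17.4 CPM per kb in controls. Pdia3 came next, at 162 CPM per kb with celecoxib, 156.5 CPM per kb with rofecoxib and 166.5 CPM per kb in controls. Sdf2l1 was the lowest, at 5.25 CPM per kb with celecoxib, 3.14 CPM per kb with rofecoxib and 4.41 CPM per kb in controls. In controls, the ranges of Calr, Pdia3 and Sdf2l1 did not overlap those of their neighbours in the order, while Pdia3 overlapped Hspa5 with celecoxib and Calr overlapped Pdia3 with rofecoxib (lowest Calr 167 and highest Pdia3 169 CPM per kb). In controls, Hsp90b1 (127 CPM per kb) and Hspa5 (116 CPM per kb) had overlapping ranges, as had Pdia4 (49.1 CPM per kb) and Xbp1 (43.0 CPM per kb), Xbp1 and Pdia6 (37.6 CPM per kb), and Dnajb9 (17.6 CPM per kb) and Manf (16.3 CPM per kb). With celecoxib 3 pairs of neighbours changed places, each with overlapping ranges: Hspa5 at 144 CPM per kb stood before Hsp90b1 at 130 CPM per kb, Xbp1 at 52.9 before Pdia4 at 49.6 CPM per kb, and Manf at 21.5 before Dnajb9 at 18.5 CPM per kb. The rofecoxib order was that of the controls.

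Summed over the 10 genes, levels ran from 2657 to 3089.5 CPM with celecoxib, 2407 to 2782 CPM with rofecoxib and 2433 to 2799 CPM in controls. In order of replicate number, the sums were 2796, 2679.5, 2657, 2871, 2922, 2918, 3004 and 3089.5 CPM with celecoxib. They were 2782, 2480, 2525, 2407, 2497.5, 2553, 2737 and 2412 CPM with rofecoxib. Control sums were 2737, 2762, 2775, 2728, 2531, 2433, 2799 and 2531 CPM. The number in the sample title rises with the replicate number in each group, and a trend with it was not tested. Celecoxib replicate 8 was above the control mean for 10 of the 10 genes, and rofecoxib replicates 4 and 5 for 1 each. The spread among replicates differed between genes and groups. Hsp90b1 varied least with celecoxib, with a coefficient of variation of 2.21%, against 6.56% with rofecoxib and 9.92% in controls, where replicate 6 was lowest at 418.5 CPM. Hspa5 went the other way, with 10.3% with celecoxib, 9.57% with rofecoxib and 4.87% in controls.

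**Figure D4:**
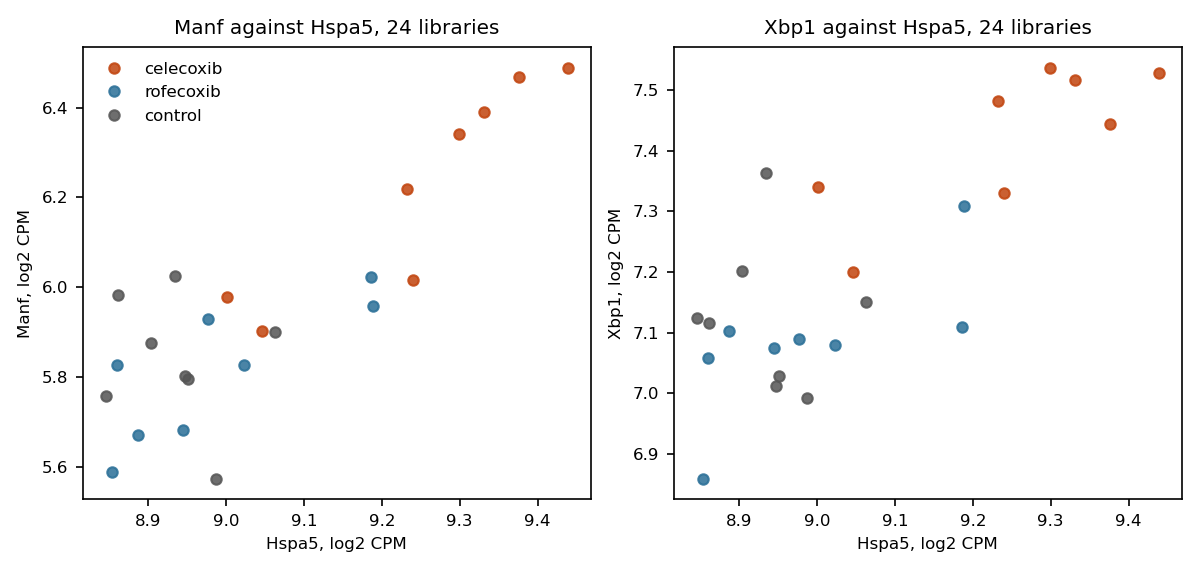
Log2 CPM of Manf (left, y axis) and Xbp1 (right, y axis) against log2 CPM of Hspa5 (x axes) in the 24 libraries, coloured by group. Pearson's r between Hspa5 and Manf is 0.92 among celecoxib, 0.811 among rofecoxib and -0.17 among control libraries, and its exact p passes adjustment among the celecoxib libraries.

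Within the groups, the genes varied together in part. Permutation tests over the 24 libraries, here and for the pairs below, shuffled values with the group mean taken off without regard to group. Their p-values can therefore be too small, more so where the spread differs between groups. With the group mean taken off, Manf followed Hspa5 over the 24 libraries with Pearson's r of 0.711 and Spearman's rho of 0.677 (two-sided permutation tests, p = 1.40e-04 and 4.50e-04, adjusted p = 0.00126 and 0.00405 over the 9 relations of Hspa5). Without celecoxib replicate 3 and rofecoxib replicate 7, the libraries farthest from the median of Hspa5, r was 0.667 (permutation test, adjusted p = 0.0063). The relation of Hspa5 with Xbp1 had r of 0.553 and rho of 0.551 (permutation tests, p = 0.00503 and 0.00563, adjusted p = 0.0151 and 0.0253). The relation of Hspa5 with Pdia6 had r of 0.557 and rho of 0.457 (permutation tests, p = 0.00466 and 0.0258, adjusted p = 0.0151 and 0.0465). Without the 2 libraries r was 0.466 for Xbp1 and 0.352 for Pdia6, with adjusted p of 0.13 and 0.206 in the permutation test, so both relations rest in part on those libraries.

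Separately by group, r between Hspa5 and Manf was 0.92 among celecoxib libraries (exact permutation test, p = 2.98e-04, adjusted p = 0.00804 over 27 relations), 0.811 among rofecoxib libraries (exact p = 0.0174, adjusted p = 0.0781) and -0.17 among controls (exact p = 0.687). Without the 2 libraries farthest from the group's median of Hspa5, these were 0.872 with celecoxib, 0.575 with rofecoxib and -0.77 in controls. Among celecoxib libraries, r of Hspa5 with Pdia6 was 0.922 and rho 0.762 (exact permutation tests, p = 0.00298 and 0.0368, adjusted p = 0.0337 and 0.165), of which rho did not pass; r was 0.603 without the 2 farthest libraries, so the relation rests in part on them. Among controls the relation that passed was with Dnajb9, with r of 0.882 and rho of 0.952 (exact permutation tests, p = 0.00375 and 0.00114, adjusted p = 0.0337 and 0.0154), and r was 0.833 without the 2 farthest. Whether r differs between the groups was not tested.

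Over all 45 pairs of the 10 genes, r after removal of group means ran from -0.28 for Pdia3 with Xbp1 to 0.84 for Pdia3 with Pdia4, with a median of 0.265. Of these pairs, 14 had r over 0.5 and 9 had r below 0. Pairs of other genes were not computed, so whether these counts are particular to the 10 genes was not tested. Of the 14, 10 joined Hsp90b1, Calr, Pdia3, Pdia4 and Pdia6, the lectin chaperone, the ER Hsp90 and the disulfide isomerases, with each other, and 3 joined Hspa5, Manf and Xbp1. The last was Hspa5 with Pdia6. Manf with Xbp1 had r of 0.765 and rho of 0.783 (permutation tests, adjusted p = 6.75e-04 and 6.00e-04 over the 45 pairs), and Pdia3 with Pdia4 had r of 0.84 and rho of 0.75 (permutation tests, adjusted p = 4.50e-04 and 6.00e-04). Leaving out control replicate 6 took the r of Pdia3 with Pdia4 to 0.739, that of Hsp90b1 with Pdia3 to 0.583, against 0.749 with it, and that of Pdia3 with Xbp1 to 0.017. All pairs share the same libraries and scaling factors.

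Outside the 10 genes, the 6 that varied most like their mean after removal of group means, by Pearson's r over the 24 libraries, were Acvr1 (r of 0.716), Klhdc1 (0.705), Slc25a29 (0.68), Tnfsf9 (0.668), Serp1 (0.664) and Chrd (0.661). The median r of all tested genes with that mean was -0.012. These 6 are the top of a ranking over many genes. Whether their r exceeds what the top of such a ranking gives by chance was not tested. In both comparisons with control, 0 of the 6 were called by edgeR or DESeq2 or had an unadjusted p under 0.05. Their log2 fold changes ran from -0.016 for Serp1 to 0.14 for Chrd with celecoxib, and from -0.13 for Chrd to 0.26 for Tnfsf9 with rofecoxib. Between the drugs 1 of the 6 was called, Chrd, higher with celecoxib (0.27 ± 0.07, edgeR adjusted p = 0.00928).

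**Figure D5:**
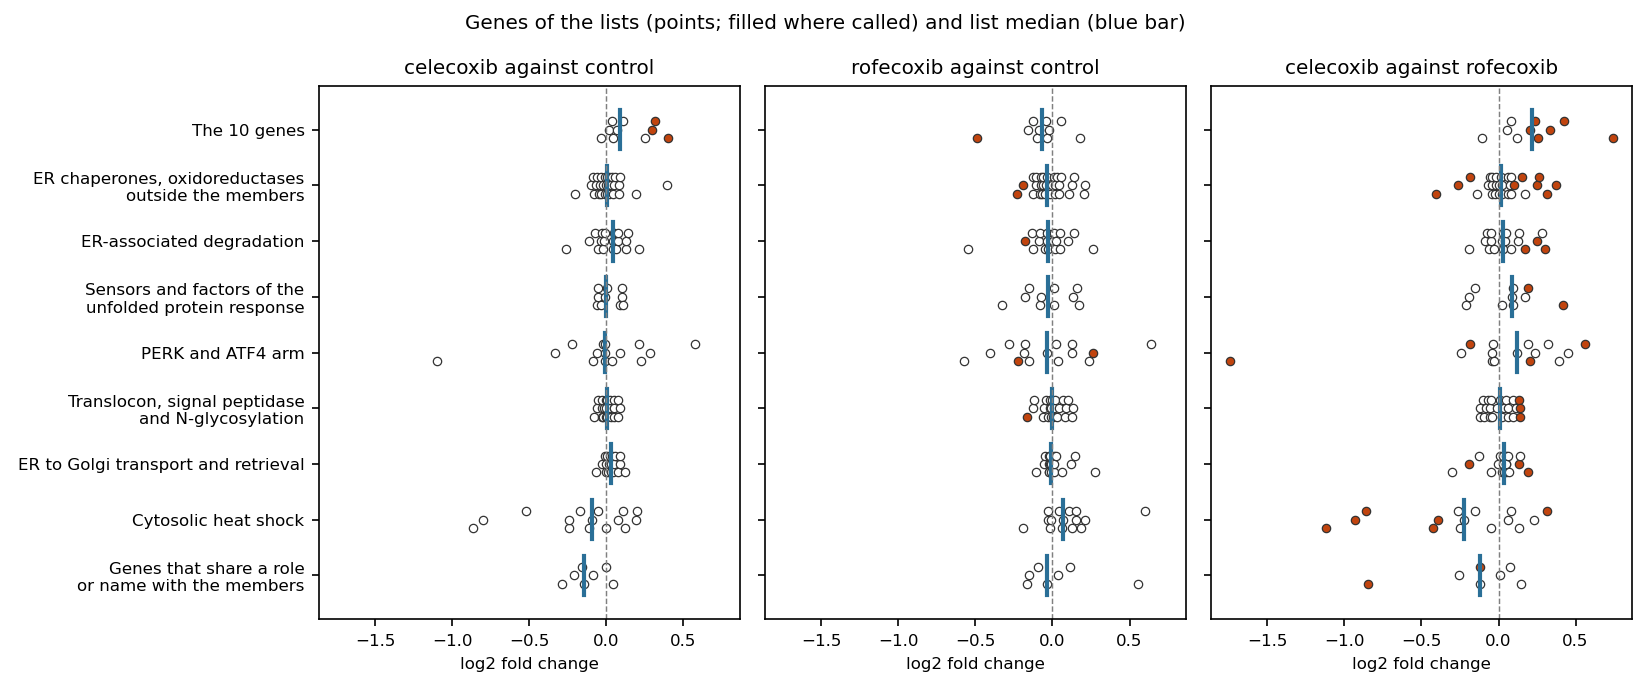
Log2 fold change (x axis) of the genes of each list (points), by comparison; filled points were called by edgeR at an adjusted p under 0.05, and the blue bar is the median of the list. With celecoxib against control, filled points occur among the 10 genes and in 0 of the other lists, where 1.41% of all genes were called.

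Other genes of the pathway were taken from 6 lists of ER folding, degradation, signalling and transport. Over these lists together, edgeR called 0 of 115 tested genes with celecoxib against control, beside 1.41% of all genes. After GC correction it called 2 (1.74%), beside 2.09% of all genes. Both shares are near those of all genes. With celecoxib against control, edgeR called 0 of the 29 further ER chaperones and oxidoreductases, and their median log2 fold change was 0.0034; at an unadjusted p under 0.05, 4 were higher and 3 lower, and DESeq2 called 1, Creld2. Creld2, which encodes an ER-resident protein induced by ER stress, had the smallest p of the list, with 35.6 ± 8.53 CPM with celecoxib and 27.1 ± 1.45 CPM in controls (0.40 ± 0.12, edgeR adjusted p = 0.0874). Among 19 tested genes of ER-associated degradation, edgeR called 0, with 4 higher and 1 lower at an unadjusted p under 0.05, and DESeq2 called 2 higher, one of them Syvn1. The leading gene was Syvn1, the ubiquitin ligase HRD1, with 76.0 ± 6.36 CPM with celecoxib and 65.5 ± 2.61 CPM in controls; all 8 celecoxib libraries were above the control mean (0.21 ± 0.06, edgeR adjusted p = 0.0704, and 0.0395 after GC correction).

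In the signalling lists edgeR called 0 genes in this comparison as well. Among the 10 tested sensors and transcription factors of the response, the leading gene was Creb3, a membrane-bound transcription factor of the ER, at 0.10 ± 0.05 (edgeR adjusted p = 0.308); 0 of the list had an unadjusted p under 0.05, and DESeq2 called 0. In the PERK and ATF4 arm of 15 genes it was Atf4, with 196 ± 21.6 CPM with celecoxib and 168 ± 13.3 CPM in controls (0.23 ± 0.06, edgeR adjusted p = 0.0643); at an unadjusted p under 0.05, 2 of the arm were higher and 2 lower, and DESeq2 called 2 higher, one of them Atf4. The lists of the translocon, signal peptidase and N-glycosylation (23 genes) and of transport between ER and Golgi (19 genes) had 0 genes called by edgeR or DESeq2 and 1 higher gene each at an unadjusted p under 0.05, with Sec61a1, the channel subunit of the translocon, at 0.085 ± 0.04 and Kdelr3, a retrieval receptor for ER-resident proteins, at 0.12 ± 0.05 (edgeR adjusted p = 0.273 and 0.244).

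With rofecoxib against control, 6 of the 115 tested genes of these lists were called (5.22%), a share near the 5.3% of all genes. Prkcsh, a subunit of the glucosidase that trims N-glycans in the ER, was lower (77.4 ± 7.45 CPM with rofecoxib and 90.9 ± 4.98 CPM in controls, edgeR adjusted p = 0.0389), as was Fkbp2, an ER prolyl isomerase (-0.19 ± 0.06). Os9, a lectin of ER-associated degradation, and Ddost, a subunit of the oligosaccharyltransferase, were lower by log2 fold changes of -0.18 ± 0.05 and -0.16 ± 0.05 (edgeR adjusted p = 0.0495 and 0.0486). Atf4 was higher, with 201 ± 14.0 CPM with rofecoxib and 168 ± 13.3 CPM in controls (0.26 ± 0.06, edgeR adjusted p = 0.0231), and Atf5, a factor downstream of it, was lower (-0.23 ± 0.05, edgeR adjusted p = 0.0192). Of these 6, Atf4 was called after GC correction (edgeR adjusted p = 0.0143) and the others were not.

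Between the drugs, 24 of the 115 genes of these lists were called (20.9%), a share near the 22.7% of all genes, and 20 after GC correction (17.4%), beside 10% of all genes. Of the 29 further chaperones and oxidoreductases, 6 were higher with celecoxib than with rofecoxib and 3 lower, and the median of the list was 0.015. Hyou1, the large Hsp70-type chaperone of the ER, had 123 ± 12.1 CPM with celecoxib and 99.0 ± 8.31 CPM with rofecoxib (0.32 ± 0.06, edgeR adjusted p = 0.00151), and Dnajb11 had 64.2 ± 4.06 CPM with celecoxib and 57.7 ± 2.78 CPM with rofecoxib (0.16 ± 0.04, edgeR adjusted p = 0.00993). The 3 lower genes were Cdnf, the paralogue of Manf, at -0.41 ± 0.09 (edgeR adjusted p = 0.00312), Tmx1 and Dnajc10. In ER-associated degradation 3 of 19 genes were called, and Syvn1, Herpud1 and Edem2 were all higher with celecoxib, at 0.30 ± 0.06, 0.25 ± 0.06 and 0.17 ± 0.06. These 3, Hyou1, Dnajb11 and Cdnf were also called after GC correction.

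Of the sensors, Creb3l1 and Eif2ak3, the gene of PERK, were called higher with celecoxib than with rofecoxib (0.41 ± 0.10 and 0.19 ± 0.06), and edgeR called 0 of the 10 genes of that list after GC correction. In the PERK and ATF4 arm, Trib3 and Atf5 were higher with celecoxib, and Atf3 and Ppp1r15b lower; of these 4, Atf3 was also called after GC correction and the other 3 were not. Atf3, a stress-inducible factor, had 56.1 ± 27.4 CPM with celecoxib and 187 ± 44.3 CPM with rofecoxib (-1.74 ± 0.38, edgeR adjusted p = 0.00386). Of the translocon list 3 of 23 genes were higher with celecoxib, and of the transport list 2 of 19 were higher and 1 lower; of these 6, Sec61a1 and Sec31a, a coat protein of vesicles leaving the ER, were also called after GC correction.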

How the data were processed

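PolyA RNA of thoracic aorta was sequenced from 24 TruSeq libraries made with 13 PCR cycles over 3 days, per the labels' protocols; the sources used here do not give the day of each library. The submitters' processing notes name CASAVA 1.8.2, STAR 2.5.1b and the mm9 build. The authors deposited whole-number counts per gene; the sources used here do not give the counting tool, annotation or strand use. Tests ran on these counts in R 4.3.3 with edgeR 4.0.16: filterByExpr, TMM factors (0.959 to 1.03), a robust quasi-likelihood fit with 1 mean per group over all 24 libraries (21 residual degrees of freedom), Benjamini-Hochberg adjustment over 14451 genes, called under 0.05. The procedure was tested on simulated data. Correlations used log2 CPM (prior count 2) and 100000 resamples. Alternatives used other scaling, no low-count filter, DESeq2 1.42.0, 2 groups only, a replicate block, GC correction (smoothing span 0.3) and left-out libraries. Exon lengths and GC content came from GENCODE M21, matched for 24179 of 25941 genes (93.2%), and promoters from RefSeq. The 10 genes, lists and tests were chosen with earlier results of these data known. Named from each pathway list were called genes, up to 4 per direction by p, or the gene of smallest p, plus the 6 genes of most similar variation.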

Additional observations from a re-analysis of the deposited data

Results flagged for a closer look

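Each gene's 8 values in each group were checked for a single library far from the rest with Dixon's ratio, the gap to the nearest library over the range of the group. This picked out 2 of the 30 gene and group combinations, and chance alone picks out about 1 in 20. Pdia4 in control replicate 6 was at 94.074 CPM, against 113.7 to 128.3 CPM in the other 7 controls; this library also had the lowest control values of Hsp90b1, Calr and Pdia3 and the highest sums of adipocyte markers. The part of fat content in these values was not tested. Pdia6 in rofecoxib replicate 7 was at 143.5 CPM, against 121 to 131 CPM in the other 7 rofecoxib libraries. The same library had the highest rofecoxib values of Hspa5, Hsp90b1, Pdia4 and Xbp1.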

How the results depend on the processing

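With group means taken off, r across genes between same-numbered libraries of 2 groups ran from -0.39 to 0.324, over 0.1 in 10 of 24 pairs. It was not computed for libraries of different number, so whether the replicate numbers of the labels pair libraries was not tested. With the number as a replicate block, 3, 1 and 6 of the 10 genes were called for celecoxib against control, rofecoxib against control and celecoxib against rofecoxib, and 187, 653 and 3193 of all genes. Of 1017 values of the 10 genes under alternatives, 975 kept their direction and their side of the threshold.

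For celecoxib against control, 204 genes were called in all, 86 with no filter on low counts, 477 with DESeq2, 88 with only the 2 groups, and 351 with GC correction and replicate block; library totals gave 100 higher and 83 lower, against 132 and 72, and leaving out control replicate 6 gave 134 and 130. Leaving out 1 library gave 42 to 312 genes: 312, 93, 57, 42, 135 and 73 without celecoxib replicates 2, 3, 4, 5, 7 and 8, 135 without rofecoxib replicate 3, and 96, 64, 68, 116, 109 and 113 without control replicates 1, 2, 3, 4, 7 and 8. For rofecoxib against control, 766 genes became 294 with no filter, 1567 with DESeq2, 461 with only the 2 groups, 213 with GC correction, 169 with GC correction and replicate block, and 215 without control replicate 6 and rofecoxib replicate 2. Leaving out 1 library gave 170 to 1121: 479, 401, 199 and 179 without rofecoxib replicates 1, 2, 7 and 8, and 178, 335, 170 and 435 without control replicates 5, 6, 7 and 8. Of the 10 genes, 2 were called here with DESeq2 size factors or library totals, 3 with DESeq2, 0 without control replicate 6 and rofecoxib replicate 2, and 0 to 2 with 1 library left out: 0 without rofecoxib replicate 2 or 8 or control replicate 5 or 7, and 2 without celecoxib replicate 4 or rofecoxib replicate 1, 6 or 7. Calr joined without rofecoxib replicate 1 (edgeR adjusted p = 0.0333) and Pdia6 without the other 3 (at most 0.0464). For celecoxib against rofecoxib, 3275 genes became 1446 with GC correction, 1578 with GC correction and replicate block, and 2147 to 3739 with 1 library left out, the lowest without rofecoxib replicate 8. The cause of these shifts was not tested.

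Values that changed sign were all near 0 and uncalled. With celecoxib against control, Pdia4 was -0.0052 with library totals, -0.027 without control replicate 6 and rofecoxib replicate 2, and -0.027 to 0.037 with 1 library left out; Hsp90b1 was -0.0019 without those 2 libraries and -0.0019 to 0.059 with 1 left out. With rofecoxib against control and without those 2 libraries, Manf was 0.0051 and Xbp1 0.0033; with 1 library left out Manf ran from -0.069 to 0.0057 and Xbp1 from -0.068 to 0.0015. Dnajb9 between the drugs was 0.0036 with GC correction and 0.0011 with GC correction and replicate block. At 57 to 163 counts per library, Sdf2l1 is limited most by depth.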

Other observations

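Heat shock genes of the cytosol answer to unfolded proteins outside the ER. The list of 15 genes used here also holds Hspd1 and Hspe1, whose products are mitochondrial chaperones. With celecoxib against control edgeR called 0 of 15, with 1 higher and 3 lower at an unadjusted p under 0.05, and DESeq2 called 1, Hspa1a, lower. The median log2 fold change was -0.094, and Hspa1a, an inducible Hsp70, had 142 ± 33.3 CPM with celecoxib and 259 ± 93.0 CPM in controls (-0.86 ± 0.26, edgeR adjusted p = 0.0938). Between the drugs 1 was higher with celecoxib, Hsf1, the heat shock transcription factor (0.31 ± 0.07, edgeR adjusted p = 0.00651), and 5 were lower, among them Hspa1a (-0.93 ± 0.26, edgeR adjusted p = 0.0156) and Dnajb1, an Hsp40 cochaperone (-1.12 ± 0.25, edgeR adjusted p = 0.00467). After GC correction Hsf1 (0.17, edgeR adjusted p = 0.0531) and 1 of the 5 lower genes, Dnaja1, were not called. Dnajb4, a relative of Dnajb1, had 444 ± 109 CPM with celecoxib and 798 ± 179 CPM with rofecoxib (-0.85 ± 0.23, edgeR adjusted p = 0.0124).

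The ratio of Hspa5 to Hsp90b1 counts within a library, a measure chosen after the values were seen, does not depend on library scaling. It ran from 1.02 to 1.30 with celecoxib (median 1.19), from 0.902 to 1.11 with rofecoxib (median 1.04) and from 0.822 to 1.17 in controls (median 0.964). The highest control value was that of replicate 6, the library with the fewest Hsp90b1 counts, 9200.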
